A study of Arabidopsis thaliana with 12 samples.

Results

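The genes described here are markers of phosphate starvation in Arabidopsis thaliana, 9 loci chosen by name: the non-coding RNA gene AT5G03545 (also known as At4 or IPS2), SPX1, SPX3, PHT1;1, PHT1;4, SQD1, SQD2, MGD3 and PAP17. Of these, 8 were analysed among the 20777 loci on the table, and PHT1;1 was not analysed here. AT5G03545 was included because it is higher in the mutants, and SQD1 (AT4G33030) was known to lie in a raised stretch of chromosome 4 in gra2-D and gra3-D. The differences of AT5G03545 from wild type, and those of SQD1 in gra2-D and gra3-D, therefore describe how the genes were chosen and carry no test. The reasons for choosing the other 6 name no value of theirs, nor one of SQD1 in gra1-D, but the set was drawn up with earlier results of these arrays known.

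The data come from 12 Affymetrix ATH1 arrays, 3 for wild type and 3 each for gra1-D, for gra2-D and for gra3-D, all in the ecotype Col-0, with 1 array per biological replicate. These grandifolia mutants are linked by the series title to a chromosomal duplication. All plants grew on MS medium at 22 °C with a 16 h day and an 8 h night, and RNA was taken at stage 1.03 from the vegetative part of the seedlings. The labels name no phosphate treatment in any group.

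Plants short of phosphate switch on a shared set of genes. The transcription factor PHR1 drives it and is held back by SPX proteins, which sense inositol pyrophosphates when phosphate is plentiful. MicroRNA miR399 lowers the ubiquitin-conjugating enzyme PHO2, which otherwise limits phosphate transporters, and At4 and its relative IPS1 are target mimics that bind miR399 in place of PHO2. Transporters of the PHT1 family take up phosphate, purple acid phosphatases release it from organic compounds, and the enzymes SQD1, SQD2 and MGD3 help to replace phospholipids with sulfolipids and galactolipids.

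Values are log2 expression levels, so that a difference of 1 is a doubling. A locus was called changed where limma's Benjamini-Hochberg adjusted p, taken over all loci of the comparison, was under 0.05. A group mean under 5 was taken as close to the array background. Array medians lay between 6.36 and 6.43. Of the leaf markers, RCA, CA1, PSBO1 and GAPA stood between 13.5 and 14.2 in every group, and limma called 0 of these 4 in each mutant alone (1 lower at an unadjusted p under 0.05 in each, CA1). On the mean of the mutants CA1, a chloroplast carbonic anhydrase gene, fell by 0.17 ± 0.046 (adjusted p = 0.0296), with 9 of 9 mutant arrays below wild type. That call ended without any 1 wild-type array, without gra3-D replicate 2 and with centring (adjusted p up to 0.107), and its part in the results was not tested. Of 9 root markers, IRT1, COBL9, EXPA7, MYB36, NRT2.1 and PRP3 had means under 5 in all 4 groups, EXPA18 stood between 4.96 and 5.14, CASP1 between 5.15 and 5.35, and SCR, which is also expressed in leaves, between 8.07 and 8.19. RNA came from whole tissue, in which a change in the share of a cell type and a change of RNA per cell cannot be told apart.

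AT5G03545 had the widest spread of the 8 markers, and all 9 mutant arrays lay above all 3 wild-type arrays. Its log2 values were 5.46, 5.22 and 5.77 in wild type. They were 7.87, 7.24 and 6.83 in gra1-D, 7.0, 6.32 and 6.15 for gra2-D, and 6.73, 7.34 and 6.52 in gra3-D. Wild type was thus lowest, gra1-D highest on average, and the 3 mutant groups overlapped one another.

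The differences of AT5G03545 from wild type were 1.83 ± 0.28 for gra1-D (SE, n = 3 per group; 3.56-fold), 1.01 ± 0.28 for gra2-D (2.01-fold) and 1.38 ± 0.28 for gra3-D (2.6-fold). Ranked by rise among the 20014 loci outside the raised stretch of chromosome 4, it held place 2 for gra1-D, place 24 for gra2-D and place 4 for gra3-D. These ranks describe the choice of the gene. Without gra2-D replicate 1 the gra2-D difference was 0.75.

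Between mutants, a difference of AT5G03545 was not part of the choice. Its level was lower in gra2-D than in gra1-D by 0.83 on the log2 scale (95% interval from -1.42 to -0.23), but limma did not call it (adjusted p = 0.327, unadjusted p = 0.0106). The order of the group means was wild type, gra2-D, gra3-D and gra1-D, and neighbours among the mutants did not pass the test (gra3-D minus gra2-D 0.37, from -0.23 to 0.97; gra3-D minus gra1-D -0.45, from -1.05 to 0.15).

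**Figure D1:**
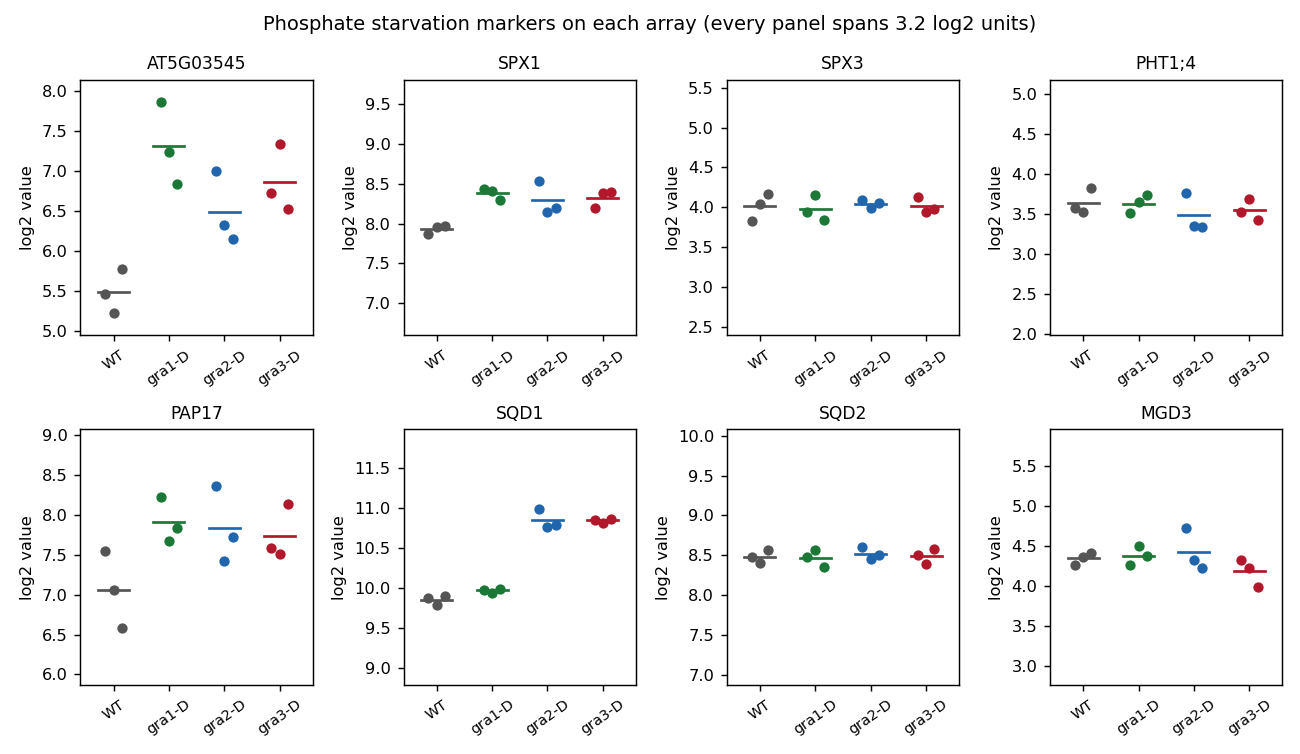
Log2 value on every array (points) and group mean (bar) for the 8 markers, by group, with an equal span on every vertical axis. AT5G03545, SPX1 and SQD1 show all mutant arrays above wild type (SQD1 only slightly in gra1-D), PAP17 shows 7 of 9, and SPX3, PHT1;4, SQD2 and MGD3 show overlapping groups.

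Of the other 6 markers, SPX1 rose in each mutant, and the other 5 did not pass the test in any. That is 1 of 6 called higher and 0 called lower in each mutant (2 higher and 0 lower at an unadjusted p under 0.05, PAP17 being the other). Over all loci, limma called 2.82% higher and 2.76% lower for gra1-D, 5.24% and 6.23% for gra2-D, and 3.13% and 2.97% for gra3-D. Outside each mutant's raised stretch of chromosome 4, where all 6 lie, limma called 0.915% of loci higher for gra1-D, 2.63% for gra2-D and 0.948% for gra3-D. The median log2 difference of the 6 was 0.012 for gra1-D, 0.060 for gra2-D and 0.0060 for gra3-D, against -0.015, -0.00017 and -0.019 over all loci. The 3 comparisons share the wild-type arrays, so the 3 calls of SPX1 are not independent of each other.

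SPX1 (AT5G20150) encodes a nuclear SPX protein that binds PHR1, and its transcript is known to rise when phosphate is short. On the wild-type arrays SPX1 stood at 7.87, 7.96 and 7.97. Values in the mutants were 8.44, 8.41 and 8.30 in gra1-D, 8.54, 8.15 and 8.20 for gra2-D, and 8.20, 8.38 and 8.40 in gra3-D. All 9 mutant values exceeded the 3 of wild type, and the mutant groups overlapped. That upward pattern was found for 4.12% of all loci, a share that includes the raised stretch of chromosome 4, where SPX1 does not lie.

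The rise of SPX1 was smaller than the difference in AT5G03545, at 0.45 ± 0.099 for gra1-D (SE, 1.37-fold, adjusted p = 0.0147), 0.36 ± 0.099 for gra2-D (1.28-fold, adjusted p = 0.0299) and 0.39 ± 0.099 for gra3-D (1.31-fold, adjusted p = 0.0298). The single calls were close to the threshold. For gra1-D, dropping WT replicate 1, gra1-D replicate 1 or gra1-D replicate 2 ended the call (adjusted p up to 0.065). For gra2-D, dropping any wild-type array or gra2-D replicate 1 did so (up to 0.104), and for gra3-D any wild-type array or gra3-D replicate 2 or 3 (up to 0.12). Fitted on gra2-D and wild-type arrays alone, SPX1 had adjusted p = 0.0698.

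Because the 3 mutants gave similar values, their mean was also set against wild type in the same fit, a comparison added after seeing the data. In it, limma called 4.83% of all loci higher, those of the raised stretch of chromosome 4 included. SPX1 rose by 0.40 ± 0.080 (adjusted p = 0.00489; adjusted p from 0.00226 to 0.035 over 18 alternatives, which include leaving out each array). PAP17 rose as well, by 0.77 ± 0.22 (1.7-fold, adjusted p = 0.0336).

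PAP17 (AT3G17790) encodes a purple acid phosphatase that is induced by phosphate starvation and also in senescing and stressed leaves. Wild-type values were 7.54, 7.06 and 6.58, the widest wild-type spread of the 8 markers. Mutant values were 8.23, 7.68 and 7.84 in gra1-D, 8.36, 7.42 and 7.72 for gra2-D, and 7.58, 7.51 and 8.13 in gra3-D. All gra1-D arrays exceeded the highest wild-type array, while gra2-D and gra3-D overlapped wild type.

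For each mutant alone, the PAP17 difference did not pass the test: 0.85 ± 0.26 for gra1-D (adjusted p = 0.0845), 0.77 ± 0.26 for gra2-D (adjusted p = 0.0798) and 0.68 ± 0.26 for gra3-D (adjusted p = 0.178). The call on the mean of the mutants was lost on dropping WT replicate 2, WT replicate 3 or gra1-D replicate 1 (adjusted p up to 0.213). Single arrays moved these values. Without WT replicate 1, the highest wild-type array for this gene, PAP17 was called in gra1-D (adjusted p = 0.036) and in gra2-D (0.0323), and without gra2-D replicate 2 in gra2-D (0.0472). The gra2-D difference fell to 0.511 without gra2-D replicate 1 (adjusted p = 0.262), and that of gra3-D to 0.438 without WT replicate 3 (0.507).

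Arrays of wild type, gra1-D and gra2-D that carry the same replicate number deviated together. With that number as a block, PAP17 was called in gra1-D and in gra2-D (adjusted p = 0.0419 and 0.0392 over 12 arrays, 0.00306 and 0.00339 with the gra3-D arrays left out, a fit added after seeing the data). With the block, 2 of the 6 markers were thus called in each of these mutants. In gra3-D, PAP17 was not called with the block (adjusted p = 0.0971). Deviations of gra3-D replicate 2 correlated with those of the same number in the other groups (0.23 to 0.29). Those of gra3-D replicate 3 correlated instead with replicate 1 of the other groups (0.24 to 0.33). The block by number thus did not match all gra3-D arrays, and no other numbering was tried.

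**Figure D2:**
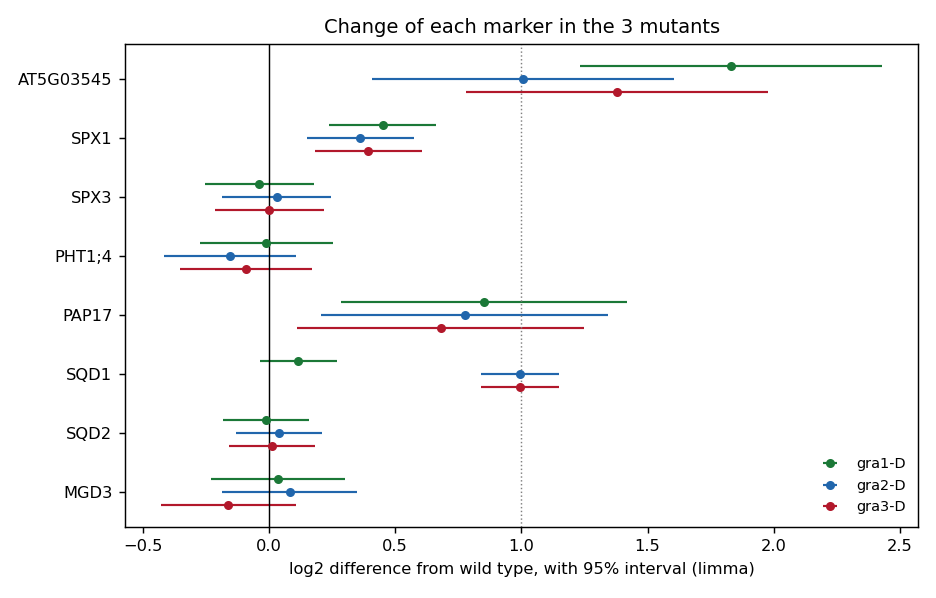
Log2 difference from wild type for each marker (points) with the 95% interval from limma (lines), for gra1-D, gra2-D and gra3-D; the dotted line marks a doubling. The intervals of SPX1 lie above 0 and below 1 in all 3 mutants, those of SQD2 include 0, and SQD1 stands near 1 only in gra2-D and gra3-D. Intervals are not adjusted for the number of loci.

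SPX3, PHT1;4 and MGD3 could not be followed on these arrays, because their signals lay close to background in every group. SPX3 (AT2G45130), a relative of SPX1 and one of the genes most strongly induced by phosphate starvation, ranged from 3.83 to 4.17 in wild type and from 3.84 to 4.16 over the mutant arrays. PHT1;4 (AT2G38940), a high-affinity phosphate transporter of roots, ranged from 3.52 to 3.82 in wild type and from 3.34 to 3.77 in the mutants. MGD3 (AT2G11810), a galactolipid synthase induced by phosphate starvation, ranged from 4.26 to 4.41 in wild type and from 3.99 to 4.73 in the mutants.

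For these 3 genes the mutant groups overlapped wild type throughout, and the differences ran from -0.16 (MGD3 in gra3-D) to 0.081 (MGD3 in gra2-D), with adjusted p from 0.508 to 0.999. A signal so low may not follow the transcript, so these values neither show a change nor bound one. The root markers beside them, in a sample of the vegetative part, gave 0 of 9 called by limma in each mutant (0 at an unadjusted p under 0.05).

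SQD2 (AT5G01220), which attaches sulfoquinovose to diacylglycerol in the last step of sulfolipid synthesis, was well above background and showed no called change. It stood at 8.48, 8.40 and 8.56 in wild type. It stood at 8.48, 8.57 and 8.36 in gra1-D, 8.60, 8.46 and 8.51 for gra2-D, and 8.50, 8.39 and 8.58 in gra3-D. All 4 groups overlapped. The differences were -0.012, 0.039 and 0.011 (adjusted p = 0.96, 0.833 and 0.973). The 95% intervals, not adjusted for the number of loci, lay between -0.18 and 0.21. They leave out a rise the size of that of SPX1 (0.45, 0.36 and 0.39 in gra1-D, gra2-D and gra3-D). They also leave out one the size of the AT5G03545 difference, for which that gene was chosen.

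SQD1 makes UDP-sulfoquinovose, the step before SQD2. Its log2 values were 9.87, 9.78 and 9.90 in wild type and 9.98, 9.93 and 9.99 in gra1-D. They were 10.99, 10.76 and 10.79 in gra2-D and 10.85, 10.81 and 10.87 in gra3-D. The gra2-D and gra3-D arrays overlapped each other and lay far above the rest.

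For gra2-D and gra3-D the SQD1 difference from wild type was 0.99 ± 0.071 in both (SE, 1.99-fold). In gra1-D, whose raised stretch starts further along the chromosome at AT4G33510, SQD1 stood 0.12 ± 0.071 above wild type and was not called (adjusted p = 0.441). All 3 gra1-D arrays lay above wild type, as they did for 8.36% of all loci, a share that includes the loci of the gra1-D stretch.

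SQD1 lay within the spread of the genes raised with it. The expressed loci of the raised stretch (mean log2 value of at least 6) had a median difference of 0.87 in gra2-D (520 loci) and 0.87 in gra3-D (426 loci), with outer deciles at 0.57 and 1.13 and at 0.59 and 1.10. SQD1 exceeded the median by 0.12 in both and stood higher than 72.9% and 74.9% of these loci. Of the 11 nearest loci, ZIP9 (AT4G33020) and AT4G33070 lay under 5 on average. The differences of the other 9 ran from 0.50 (GLDP1, AT4G33010) to 1.66 (EDA39, AT4G33050) in gra2-D and from 0.51 (GLDP1) to 1.53 (AT4G33040) in gra3-D.

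**Figure D3:**
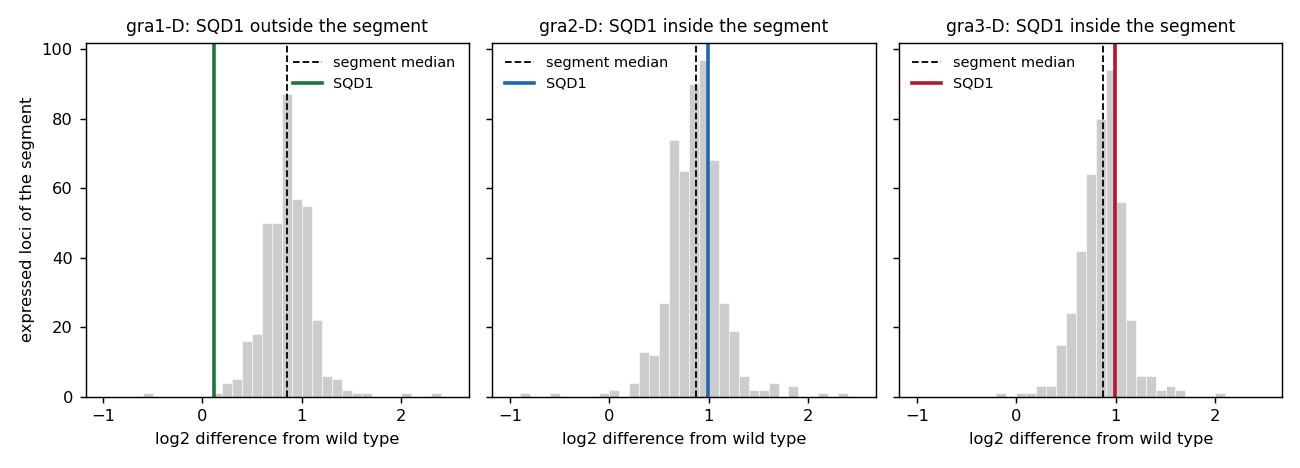
Number of expressed loci of each mutant's raised chromosome 4 segment (vertical axis) by log2 difference from wild type (horizontal axis); the dashed line is the segment median and the coloured line SQD1. SQD1 lies within the body of the distribution in gra2-D and gra3-D, and near 0 in gra1-D, where it is outside the segment.

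Apart from SQD1, none of the measured markers was called between any pair of mutants by limma, in 3 comparisons (0 of 7 in each; 1, 0 and 0 at an unadjusted p under 0.05, the 1 being AT5G03545 in gra2-D against gra1-D). Over all loci limma called 1.23% between gra2-D and gra1-D, 0.221% between gra3-D and gra1-D and 0.89% between gra3-D and gra2-D. For SPX1 the 3 differences ran from -0.089 to 0.031, and for PAP17 from -0.17 to -0.076. SQD1, which lies in the raised segment of gra2-D and gra3-D but not of gra1-D, differed by 0.88 between gra1-D and either other mutant. Between gra3-D and gra2-D it differed by -0.00055.

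One array was high for every marker. In gra2-D, replicate 1 gave the highest of the 3 values for 8 of 8 markers, while over all loci it was the highest of its group for 33.8%. In wild type, replicate 3 was highest for 7 of 8, against 42.1% of all loci. Without gra2-D replicate 1, the SPX1 difference in gra2-D was 0.24 (adjusted p = 0.102) and that of SQD1 0.92.

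The wider pathway was examined through 89 other loci in 4 lists, of which 80 were analysed and 29 had means under 5 in every group. Limma called 3 higher and 1 lower in gra1-D (3.75% and 1.25%, against 2.82% and 2.76% over all loci), 8 higher and 3 lower in gra2-D (10% and 3.75%, against 5.24% and 6.23%), and 4 higher and 0 lower in gra3-D (5% and 0%, against 3.13% and 2.97%; 5 lower at an unadjusted p under 0.05). Of the 80, 1 lay in the raised stretch for gra1-D, 2 for gra2-D and 1 for gra3-D. Among the 8 called higher in gra2-D, MGD1 lay in the stretch, whose bounds came from these arrays, so its rise carries no test. Outside the stretch the share called higher was 3.8% of the pathway genes against 0.915% of loci for gra1-D, 8.97% against 2.63% for gra2-D and 5.06% against 0.948% for gra3-D. The median log2 difference of the 80 was 0.020, 0.057 and 0.026. With the replicate block and the gra3-D arrays left out, 5 rose in gra1-D and 14 in gra2-D, where 3.87% and 7.18% of all loci did, those of the stretch included. PHO2, MGD2 and the purple acid phosphatase gene AT1G13750, all outside the stretch, were higher in all 3 mutants. The same held for 2.3% of all loci, a share that includes the stretch. Outside the gra1-D stretch, 0.915% of loci were called higher in gra1-D, so the share called in all 3 mutants there is no larger. PHO2 is a gene that miR399 lowers in the response described above, and At4 binds miR399 in place of PHO2. No value of miR399 is given here, and the cause of the PHO2 rise was not tested. The lists mix genes that limit the response with genes it induces, so the counts called higher do not measure that response.

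**Figure D4:**
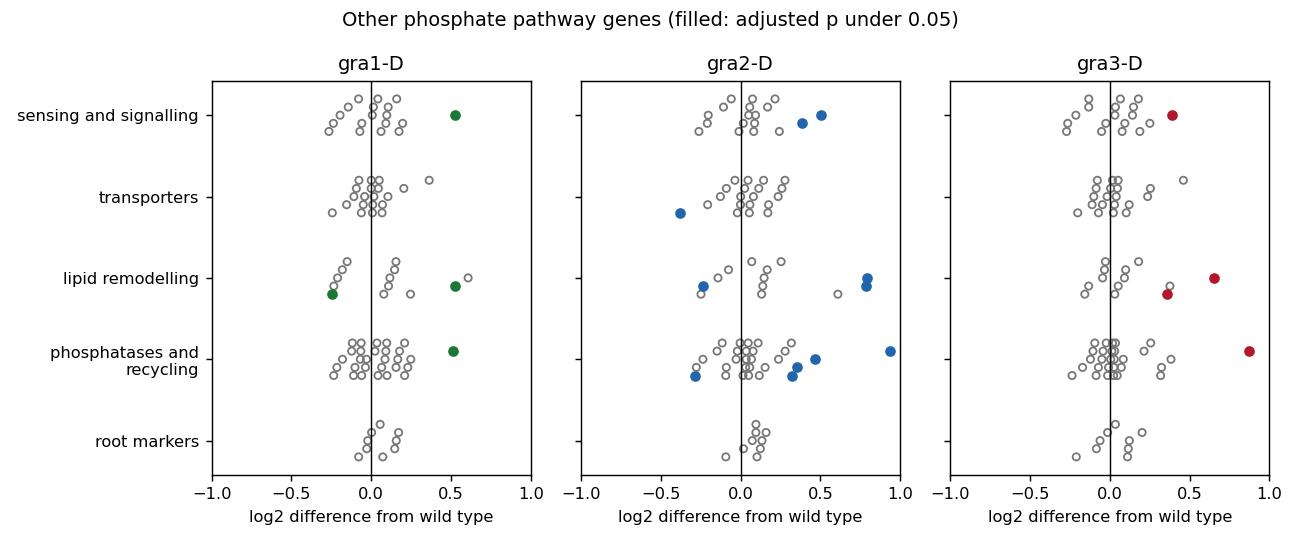
Log2 difference from wild type for each gene (points) of the 4 pathway lists and of the root markers, by mutant; filled points had a limma adjusted p under 0.05. Most points lie within 0.5 of 0, and the called genes of gra1-D and gra3-D are few.

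Among 18 sensing and signalling genes, the number that rose was 1 for gra1-D, 2 for gra2-D and 1 for gra3-D. Limma called 0 lower in each (1, 1 and 2 at an unadjusted p under 0.05). Over all loci, the shares called higher were 2.82%, 5.24% and 3.13%, and those called lower 2.76%, 6.23% and 2.97%. PHO2 (AT2G33770), the target of miR399, was the gene called in all 3. Its direction was up, whereas miR399 lowers it, and the cause of the rise was not tested. PHO2 stood at 8.62, 8.60 and 8.64 in wild type. Mutant values were 9.26, 9.05 and 9.12 in gra1-D, 9.14, 8.80 and 9.08 for gra2-D, and 8.97, 8.88 and 9.17 in gra3-D, all above wild type.

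PHO2 rose by 0.53 ± 0.099 for gra1-D (adjusted p = 0.0053), 0.39 ± 0.099 for gra2-D (adjusted p = 0.0215) and 0.39 ± 0.099 for gra3-D (adjusted p = 0.0328). The gra1-D call held under 14 of 14 alternatives (adjusted p up to 0.033). The gra2-D call was lost on dropping any wild-type array, gra2-D replicate 1 or gra2-D replicate 3 (up to 0.0849), and the gra3-D call on dropping any wild-type array, gra3-D replicate 1 or gra3-D replicate 3 (up to 0.135). On the mean of the mutants PHO2 rose by 0.43 ± 0.081 (adjusted p = 0.00297).

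Of the other genes of this list, PHR1, SPX2 and SPX4 were not called in any mutant, and VIH1 was called in gra2-D. PHR1 (AT4G28610), its main activator, stood at 0.04, -0.06 and 0.03 from wild type (adjusted p from 0.775 to 0.928). SPX2 (AT2G26660) stood at 0.062, 0.075 and 0.18 (adjusted p from 0.225 to 0.758), and SPX4 (AT5G15330) at 0.014, -0.11 and -0.026 (adjusted p from 0.515 to 0.959). VIH1 (AT5G15070), a kinase gene of inositol pyrophosphate synthesis, rose in gra2-D by 0.50 ± 0.097 (adjusted p = 0.00389, up to 0.0212 over 14 alternatives), with wild type close to background. WRKY42, at a mean of 3.89 in wild type and close to background in all groups, was called on the mean of the mutants at 0.17 ± 0.049 (adjusted p = 0.0353). Dropping WT replicate 1, 2 or 3, gra1-D replicate 2 or 3, gra2-D replicate 1 or 2, or gra3-D replicate 2 or 3 ended that call (up to 0.171).

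Among 20 transporter genes, limma called 0 in gra1-D and gra3-D (1 lower in gra1-D, and 1 higher and 1 lower in gra3-D, at an unadjusted p under 0.05). Over all loci, limma called 2.82%, 5.24% and 3.13% higher in gra1-D, gra2-D and gra3-D, and 2.76%, 6.23% and 2.97% lower. In gra2-D, 1 of the 20 fell: PHT2;1 (AT3G26570), a phosphate transporter of the chloroplast envelope. Its log2 values were 11.21, 11.12 and 11.18 in wild type and 10.81, 10.61 and 10.95 in gra2-D. The fall was -0.38 ± 0.092 (adjusted p = 0.0159), and the call ended without WT replicate 1 or gra2-D replicate 2 (up to 0.0723). PHT1;3 (AT5G43360), a close relative of PHT1;4, had means from 3.76 to 3.91, near background.

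Among 13 lipid remodelling genes, gra1-D had 1 that rose and 1 that fell, gra2-D had 2 and 1, and gra3-D had 2 and 0 (1 lower at an unadjusted p under 0.05). Of all loci, 2.82%, 5.24% and 3.13% were called higher in these mutants and 2.76%, 6.23% and 2.97% lower. MGD2 (AT5G20410), the galactolipid synthase closest to MGD3 and also induced by phosphate starvation, was called in all 3. MGD2 stood at 5.29, 5.40 and 5.50 in wild type. Mutant values were 6.10, 5.79 and 5.88 in gra1-D, 6.41, 6.12 and 6.03 for gra2-D, and 6.12, 5.79 and 6.25 in gra3-D. Every mutant array lay above wild type.

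MGD2 rose by 0.53 ± 0.13 for gra1-D (adjusted p = 0.027), 0.79 ± 0.13 for gra2-D (1.73-fold, adjusted p = 0.000936) and 0.65 ± 0.13 for gra3-D (adjusted p = 0.00625). The gra2-D call held under 14 of 14 alternatives and the gra3-D call under 13 of 13. Dropping WT replicate 1, WT replicate 2, gra1-D replicate 1 or gra1-D replicate 3 ended the gra1-D call (up to 0.118).

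MGD1 (AT4G31780), which makes most galactolipid of chloroplasts, lies in the stretch raised only in gra2-D. It stood at 9.58, 9.72 and 9.75 in wild type and at 10.42, 10.50 and 10.51 in gra2-D, a rise of 0.79 ± 0.072. The expressed loci of the raised stretch in gra2-D had a median difference of 0.87. The bounds of the stretch came from these arrays, so the rise of MGD1 in gra2-D carries no test. MGD1 stood at 9.41, 9.58 and 9.52 in gra1-D and at 9.60, 9.48 and 9.57 in gra3-D. These differences of -0.18 and -0.13 were not called (adjusted p = 0.194 and 0.376). In gra2-D, 2 enzymes of non-phosphorus lipid synthesis, SQD1 and MGD1, thus lay in the raised stretch, and in gra3-D SQD1 alone of this pair.

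Of the remaining lipid genes, GDPD5 (AT1G74210), a glycerophosphodiester phosphodiesterase gene, rose in gra3-D by 0.36 ± 0.086 (adjusted p = 0.0243). UGP3 (AT3G56040), whose enzyme supplies UDP-glucose for sulfolipid, fell by 0.24 ± 0.065 both for gra1-D and for gra2-D (adjusted p = 0.0448 and 0.0325). GDPD1 (AT3G02040) stood at 0.61, 0.61 and 0.38, with no call in the fit of 12 arrays without a block (adjusted p from 0.0614 to 0.349). With the replicate block it was called in gra1-D and gra2-D (adjusted p = 0.0416 and 0.0249, or 0.00329 and 0.00204 with the gra3-D arrays left out). It was also called in gra1-D when fitted with wild type only (0.0375). In gra2-D it was called with centring (0.0458) and without WT replicate 1, gra2-D replicate 2 or gra2-D replicate 3 (up to 0.0468). Dropping any of the 6 arrays ended the UGP3 call in gra1-D (up to 0.143), and dropping any wild-type array or gra2-D replicate 1 or 2 that in gra2-D (up to 0.114). The GDPD5 call in gra3-D was lost on dropping WT replicate 1, WT replicate 3, gra3-D replicate 2 or gra3-D replicate 3 (up to 0.105), and when fitted on gra3-D and wild type only (0.0635). Fitted on gra1-D with wild type only, with arrays centred on chromosomes without a raised segment and with a further quantile normalization, UGP3 was not called in gra1-D (adjusted p from 0.0743 to 0.134). In gra2-D, UGP3 was not called with that centring (0.07) or when fitted on gra2-D with wild type only (0.0982).

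Of 29 genes of phosphatases, nucleases and phosphate recycling, 14 lay close to background in both groups of each comparison. Among the 29, 1 rose for gra1-D, 4 for gra2-D and 1 for gra3-D. Limma called 2.82%, 5.24% and 3.13% of all loci higher in these mutants, and 0.915%, 2.63% and 0.948% outside each raised stretch. The gene called in all 3 was AT1G13750. Its log2 values were 5.13, 5.59 and 5.22 in wild type. They were 5.86, 5.86 and 5.78 in gra1-D, 6.32, 6.34 and 6.09 for gra2-D, and 6.16, 6.23 and 6.17 in gra3-D, all above wild type.

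AT1G13750 rose by 0.52 ± 0.11 for gra1-D (1.43-fold, adjusted p = 0.00963), 0.93 ± 0.11 for gra2-D (1.91-fold, adjusted p = 3.77e-05) and 0.87 ± 0.11 for gra3-D (1.83-fold, adjusted p = 9.21e-05). These calls held under 14 of 14 alternatives for gra1-D, 14 of 14 for gra2-D and 13 of 13 for gra3-D, with adjusted p up to 0.0478, 0.00122 and 0.00183. The gene was not called between gra2-D and gra1-D, at 0.42 (95% interval from 0.19 to 0.65, adjusted p = 0.1).

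In gra2-D, 3 more purple acid phosphatase genes rose: AT1G25230 by 0.36 ± 0.089, PAP8 (AT2G01890) by 0.33 ± 0.091 and PAP27 (AT5G50400) by 0.47 ± 0.11 (adjusted p = 0.0193, 0.034 and 0.0133). PAP16 (AT3G10150) fell by 0.28 ± 0.076 in gra2-D, with both groups close to background, so that its size is uncertain. In gra1-D and gra3-D limma called 0 lower (2 and 1 at an unadjusted p under 0.05). PAP25 (AT4G36350), in the stretch raised in all 3 mutants, stood between 3.89 and 4.04 in every group, close to background, with 0 calls by limma and adjusted p from 0.384 to 0.972. The calls of AT1G25230, PAP8, PAP27 and PAP16 were each lost on dropping single arrays: WT replicate 1 for all 4, WT replicate 3 for AT1G25230 and PAP8, WT replicate 2 for PAP16, gra2-D replicate 1 for PAP8, PAP27 and PAP16, gra2-D replicate 2 for AT1G25230 and PAP16, and gra2-D replicate 3 for PAP8 (adjusted p up to 0.0855, 0.128, 0.0609 and 0.111 for AT1G25230, PAP8, PAP27 and PAP16). Fitted on gra2-D and wild type only, PAP8 and PAP16 were not called (adjusted p = 0.0899 and 0.077), nor was PAP16 with centring (0.0524).

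**Figure D5:**
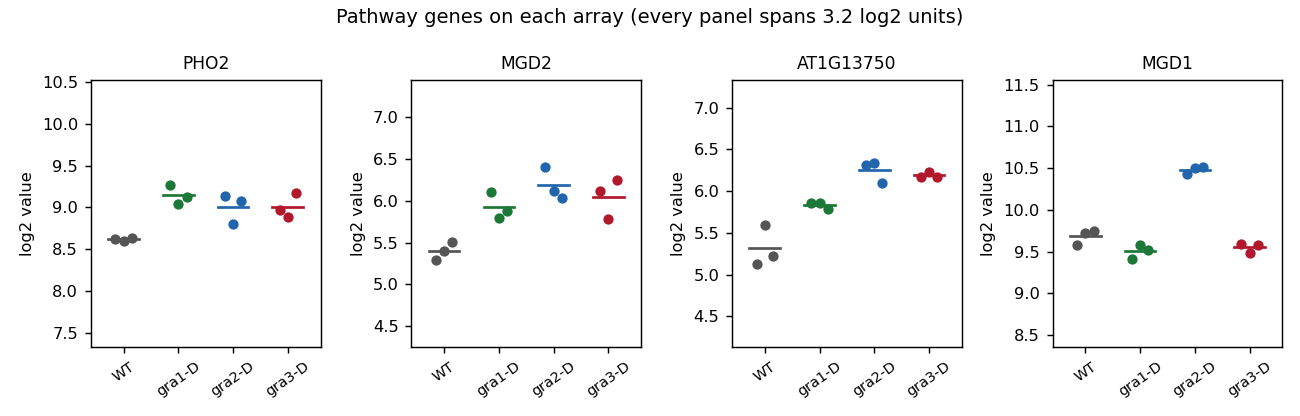
Log2 value on every array (points) and group mean (bar) of PHO2, MGD2, AT1G13750 and MGD1, by group, with an equal span on every vertical axis. The first 3 genes have all 9 mutant arrays above wild type, and MGD1 is higher in gra2-D only.

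With the mean of the mutants set against wild type, the comparison added after seeing the data, 9 of the 80 pathway genes rose and 3 fell (4.83% and 6.91% of all loci did). The 4.83% includes loci of the raised stretch, in which none of these 9 genes lies, and a share outside it was not computed. Those that rose were PHO2, MGD2, AT1G13750, GDPD5, GDPD1, AT1G25230, PAP8, PAP27 and WRKY42. Those that fell were PHT2;1, UGP3 and PAP16. AT1G13750 (0.77 ± 0.086, adjusted p = 3.22e-05), MGD2 (0.66 ± 0.10, adjusted p = 0.000853) and PHO2 were called under 18 of 18 alternatives each. The GDPD1 call ended without WT replicate 2 or 3, gra1-D replicate 1 or 2, or any 1 gra3-D array (adjusted p up to 0.186). The number that rose was 4 without WT replicate 1 and 3 without WT replicate 3, and the number that fell was 0 without WT replicate 1 or 2 and 1 without WT replicate 3.

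The loci whose values over the 12 arrays lay closest to those of AT5G03545 were sought by the root mean square difference, each locus taken relative to its own wild-type mean. The 5 closest among 13422 loci with a mean of at least 5 were AT1G27030 (0.441), CYP96A12 (AT4G39510, 0.456), HMGB5 (AT4G35570, 0.458), SLP2 (AT4G34980, 0.459) and CAD5 (AT4G34230, 0.46). The last 4 lie in the chromosome 4 stretch raised in all 3 mutants, and AT1G27030 lies on chromosome 1, with differences of 1.29, 1.03 and 1.07 in the 3 mutants. Among the markers, PAP17 was closest (0.755), at place 321 of 20776 loci. SQD1 came at place 521, SPX1 at 539, and SPX3, PHT1;4, SQD2 and MGD3 at 8266 or beyond. This measure weighs the size of a difference, and all loci share the same 12 arrays.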

How the data were processed

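Total RNA of 12 samples was hybridised to ATH1 arrays, per the labels. The authors deposited 1 table of log2 values, which they made with RMA per the submitters' processing notes (version and genome build not given in the sources used here). RMA corrects background, normalizes between arrays and compresses differences near background. Arrays carry no read depth, so their number (3 per group) limits precision. The 4 group means were fitted to all 20777 loci with limma 3.58.1 (R 4.3.3; lmFit and eBayes, two-sided, 8 residual degrees of freedom, prior 5.28) and p-values were adjusted within each comparison, with no filter on low values. The code was tested on simulated data. The members, lists and tests were chosen with earlier results of these data known. Bounds of the raised segments came from an earlier segmentation of these arrays. Named genes were all markers, PHR1, PHO2, SPX2, SPX4, PHT1;2 (not analysed here), PHT1;3, MGD1, MGD2, PAP25, the 5 loci closest to AT5G03545, and the called genes of each list, mutant and direction, or the 3 largest changes where more were called. PAP8, GDPD1, WRKY42 and the loci near SQD1 were chosen after their values were seen. Replicate numbers paired arrays by the data, not by the labels: deviations from group means correlated at 0.24 to 0.39 in all 9 same-numbered pairs among wild type, gra1-D and gra2-D, and at -0.20 to 0.29 with gra3-D. With gra3-D, only replicate 2 paired by number, and replicate 3 went with replicate 1 of the other groups (0.24 to 0.33). Alternatives were a replicate block (also without gra3-D, added after seeing the data), each array left out, quantile normalization, centring, a level filter, an intensity trend, array weights and 2-group fits. Symbols came from a RefSeq gene table (TAIR10.1), and no coordinates are given.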

Additional observations from a re-analysis of the deposited data

Results flagged for a closer look

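MGD1 (AT4G31780) differed between the mutants. It was higher in gra2-D than in gra1-D by 0.97 on the log2 scale, and the difference gra3-D minus gra2-D was -0.93. All 3 gra2-D arrays lay above every array of the other mutants. The gene lies in the chromosome 4 stretch raised only in gra2-D, whose bounds came from these arrays. Both differences therefore carry no test, and their cause was not tested.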

How the results depend on the processing

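With the replicate block, 2 of the 6 markers were called in gra1-D and in gra2-D, since PAP17 joined SPX1 (adjusted p = 0.0419 and 0.0392), and with the gra3-D arrays also left out the pathway genes called higher went from 3 to 5 in gra1-D (GDPD1 and AT1G25230 joined) and from 8 to 14 in gra2-D (GDPD1, GDPD5, LPR2, PAP12, PAP18 and PPsPase1 joined). VSP3 was then also called lower in gra2-D, the block over 12 arrays also called AT1G25230 and PAP12 in gra3-D, and neither block ended a call of the named loci. With gra2-D and wild-type arrays alone, 0 markers were called in gra2-D. Without any 1 array, 0 to 1 markers were called in gra1-D, 0 to 2 in gra2-D, 0 to 1 in gra3-D and 1 to 2 on the mean of the mutants. Pathway genes called higher without any 1 array numbered 5 to 10 in gra2-D, 2 to 4 in gra3-D and 3 to 10 on the mean of the mutants, and those called lower 0 in gra1-D, 0 to 3 in gra2-D and 0 to 4 on the mean of the mutants. With only loci at 5 or more on 3 or more arrays, or with an intensity trend, 7 rose in gra3-D. The 1 gene called lower in gra1-D became 0 with quantile normalization, centring or 2 groups, the 3 in gra2-D became 1 with centring or 2 groups, and the 3 on the mean of the mutants became 1 with centring. The share of higher loci among all called in gra1-D was 50.5%, and 66.2% with centring. Of 1429 alternative values of single loci, 110 lost a call, 52 gained one, 0 called values changed sign and 71 uncalled ones did. AT5G03545 differences kept their direction, from 0.75 to 2.07, and the loci closest to AT5G03545 were the same 5 with no minimum level. The causes were not tested. Signals near background limit what can be said of SPX3, PHT1;4 and MGD3.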
